A study of Mus musculus with 16 samples.

Results

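The mouse has 4 Notch receptor genes, Notch1, Notch2, Notch3 and Notch4, and their transcripts were followed in endothelial cells of embryos with altered Notch1 alleles. The receptors were taken by gene symbol and are 4 of the 22096 symbols in the tables, each with 1 RefSeq transcript. All 4 had a mean FPKM (fragment number scaled by transcript length and by library depth) of at least 1 and were tested among 10550 genes. The study asks how the dose of Notch1 changes endothelial gene expression.

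Cells were sorted by the surface marker CD31 from whole embryos at embryonic day 9.5, giving 16 libraries of 6 genotypes. Embryos with 2 wild-type Notch1 alleles (+/+, 3 libraries) are the reference. A wild-type allele stands beside a deleted allele in +/- (3 libraries), beside the vg allele in +/vg (3 libraries) and beside the 12 allele in +/12 (3 libraries). No wild-type allele is left in 12/vg (1 library) and 12/- (3 libraries). The vg allele carries the substitution V1744G, which the labels link to a released fragment of lower stability. In the 12 allele the intracellular domain of Notch1 is exchanged for that of Notch2. The labels call endothelial development normal in +/+, +/-, +/vg and +/12, partly disturbed in 12/vg and disturbed in 12/-. They name neither the extent of the deletion nor how many embryos made a library, so the spread between libraries may be partly technical.

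Notch receptors are single-pass membrane proteins that bind ligands on neighbouring cells. Ligand binding exposes the receptor to a metalloprotease and then to gamma-secretase, which frees the intracellular domain to act in the nucleus with the DNA-binding protein Rbpj. In the embryonic endothelium, Notch1 and Notch4 are the receptors best known for arterial identity and for restraining sprouting, and Notch3 is best known from mural cells, the muscle-like cells around vessels.

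The gamma-secretase cut and everything after it is the stretch that both altered alleles concern, so the coding sequence at that point is shown for each receptor. Each line gives 63 bases, 5′ to 3′, of the GENCODE M21 transcript (GRCm38), with the codon that holds residue 1744 of Notch1, or the codon aligned to it, in capitals.
Notch1: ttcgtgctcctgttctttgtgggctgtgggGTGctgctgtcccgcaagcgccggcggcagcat
Notch2: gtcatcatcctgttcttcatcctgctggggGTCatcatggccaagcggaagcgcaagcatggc
Notch3: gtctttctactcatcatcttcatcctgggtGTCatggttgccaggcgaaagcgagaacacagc
Notch4: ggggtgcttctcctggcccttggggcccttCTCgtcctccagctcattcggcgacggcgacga
The stretch of Notch1 lies at chr2:26465442-26465504, minus strand, exon 28 of 34, that of Notch2 at chr3:98138698-98138760, plus strand, exon 28 of 34, that of Notch3 at chr17:32139229-32139291, minus strand, exon 27 of 33 and that of Notch4 at chr17:34584462-34584524, plus strand, exon 24 of 30. The capital codon is number 1744 of 2531 in Notch1, a valine codon (GTG), as the label of the vg allele requires. Notch2 and Notch3 have a valine codon (GTC) at the aligned place, numbers 1699 of 2473 and 1663 of 2318. In Notch4 the alignment placed a leucine codon (CTC) there, number 1462 of 1964. The base that vg changes is not given in the labels.

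From this codon to the stop lie 2364 coding bases of Notch1, 24.9% of its transcript, and 2325 of Notch2, 22.1% of its transcript. Over 2202 bases that align between them, 59.8% are identical, and the longest identical run is 20 bases. Before the codon, 62.1% of 5070 aligned bases are identical, with a longest run of 23. The deposited values average over a whole transcript, so a library's reads from the intracellular part and from the extracellular part cannot be told apart in them.

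The 4 genes lie on 3 chromosomes in mm9, the build of the tables. Notch1 spans chromosome 2, 26313422 to 26359342, and Notch2 chromosome 3, 97817461 to 97954290. Notch3 and Notch4 are both on chromosome 17, at 32257838 to 32303797 and 34701240 to 34725488. Their transcripts measure 9489, 10506, 7943 and 6604 bases.

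The aligned sequence per library ran from 1.11 to 1.80 gigabases in 14 libraries, and was 0.189 in +/- replicate 2 and 0.262 in 12/vg. Mean read depth over the receptor transcripts followed this, from 17.4 to 45.5 reads for Notch1 in the 14 deeper libraries and from 1.49 to 3.70 for Notch3. In +/- replicate 2 it was 3.70 for Notch1, 0.631 for Notch2, 0.262 for Notch3 and 1.97 for Notch4, so the low receptors rest on few reads there. The endothelial label was checked with 15 markers, all above 1 FPKM on average, whose summed level ran from 1055 to 1480 scaled FPKM (FPKM divided by a factor per library). Of 11 mural cell markers, 6 had a mean of at least 1, and the sum ran from 41.3 to 74.5, most of it Mcam, which endothelial cells also express (mean 33.4). The blood list summed to between 242 and 1825, most of it the platelet chemokine Pf4 (mean 778). Of its 7 genes in the tables, 4 were among the tested genes, and the lowest was the pan-leukocyte marker Ptprc (mean 0.0130). File names carry a library number, low (203 to 248) for 9 libraries and high (371 to 380) for 7. All 7 libraries with a 12 allele are low, all +/+ libraries are high, and +/- and +/vg have 1 low and 2 high each. Any difference of +/12, 12/vg or 12/- from +/+ is thus also a difference of low from high numbers. Range and genotype cannot be told apart there, which holds for every value of these genotypes set against +/+ below.

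Notch1 was the most abundant receptor on the per-length scale of FPKM, and Notch4 came next. Over the 16 libraries Notch1 averaged 18.7 ± 3.07 scaled FPKM (SD, n = 16), Notch4 11.4 ± 3.07, Notch2 3.30 ± 0.839 and Notch3 1.81 ± 0.526. Among the 10550 tested genes, Notch1 ranked 2262 by mean level, Notch4 3547, Notch2 7644 and Notch3 9256. The order Notch1, Notch4, Notch2, Notch3 held in 15 of the 16 libraries, and in 12/- replicate 1 Notch4 stood above Notch1 (20.7 against 19.7). The ratio of Notch1 to Notch4 ran from 1.86 to 2.92 in +/+ and from 0.951 to 1.32 in 12/-.

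**Figure D1:**
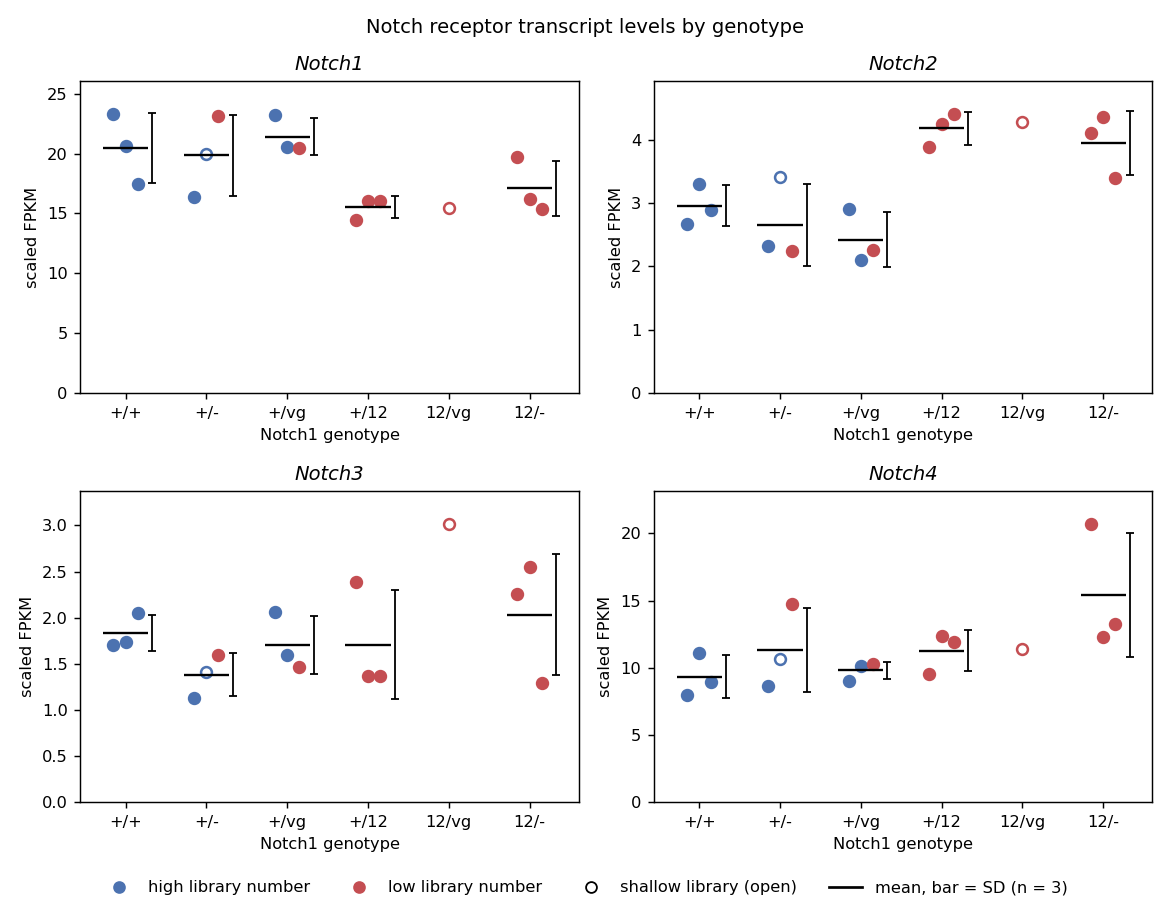
Transcript level of each Notch receptor (scaled FPKM, linear axes from 0) by Notch1 genotype, 1 point per library, with the mean and SD of the groups of 3; colour gives the range of library numbers, and open points are the 2 shallow libraries. Notch2 is at or above 3.39 in all 7 libraries with a 12 allele, and Notch1 is at or below 19.7 in them.

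The 5 comparisons were tested with limma over all 10550 genes, on log2(scaled FPKM + 1). The 12 allele effect is the mean of +/12 minus +/+ and 12/- minus +/-, and the null allele effect is the mean of +/- minus +/+ and 12/- minus +/12. The interaction asks whether the 12 allele effect differs with the second allele, and 12/- and +/vg were each set against +/+. The 12/vg library entered no contrast. A gene was called at a Benjamini-Hochberg adjusted p under 0.05.

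No receptor was called in any of these comparisons in limma. For the 12 allele, 0 of 4 receptors were called, where 0.237% of all tested genes were (0.209% higher and 0.0284% lower), and 3 of 4 had an unadjusted p under 0.05, where 11.0% of all genes did. For the null allele 0 of 4 were called (0.0569% of all genes) and 0 of 4 passed unadjusted (6.41%). The interaction gave 0 of 4 (0.0474%) and 0 unadjusted (6.58%). In 12/- against +/+ 0 of 4 were called (0.597% of all genes, 0.531% higher and 0.0664% lower) and 2 of 4 passed unadjusted (12.2%). In +/vg against +/+ 0 of 4 were called (0% of all genes) and 0 passed unadjusted (7.51%). Complete separation of the 7 libraries with a 12 allele from the 9 others was seen for 0 of 4 receptors in either direction, where 0.0190% of all genes were higher and 0.0190% lower without overlap. Between +/vg and +/+ the libraries were separate for 0 of 4 receptors, where 7.31% of all genes were higher and 6.28% lower without overlap.

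Notch1, the receptor whose locus is altered, was lower in the libraries with a 12 allele, with some overlap, and level with +/+ in the others. It was at 23.3, 20.7 and 17.4 scaled FPKM in the 3 +/+ libraries, at 16.4, 19.99 and 23.2 in +/-, and at 23.2, 20.6 and 20.4 in +/vg. It was at 14.5, 16.0 and 16.0 in +/12, at 15.4 in 12/vg, and at 19.7, 16.2 and 15.4 in 12/-. Each of the 7 libraries with a 12 allele but 12/- replicate 1 lay below every library without one. The group means fell in the order +/vg (21.4), +/+ (20.5), +/- (19.8), 12/- (17.1), +/12 (15.5) and 12/vg (15.4), and each neighbouring pair overlapped.

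The 12 allele effect on Notch1 was -0.28 ± 0.10 on the log2 scale (SE, 95% interval -0.51 to -0.06, limma adjusted p = 0.348), against a median of 0.00079 over all tested genes. The null allele effect was 0.04 ± 0.10 (-0.18 to 0.26, limma adjusted p = 0.958). A level of 10.2 scaled FPKM, the +/+ mean divided by 2, would be a change of -0.93 on this scale, which lies outside that interval. The null allele effect also averages in 12/- minus +/12, which does not start from that mean. The extent of the deletion is not given and FPKM covers the whole transcript. RNA still made from the deleted allele thus cannot be told apart from that of the other allele. The interaction was 0.17 ± 0.21 (limma adjusted p = 0.903), 12/- against +/+ was -0.24 ± 0.15 (limma adjusted p = 0.519) and +/vg against +/+ was 0.07 ± 0.15 (limma adjusted p = 0.956). With the range of library numbers as a covariate, the 12 allele effect was -0.39 (limma adjusted p = 1.0). That covariate is estimated from +/- and +/vg alone, the genotypes with both ranges, which have 1 low library each. Among the low library numbers alone, Notch1 ran from 14.5 to 19.7 in the 7 libraries with a 12 allele and was 20.4 and 23.2 in the 2 without.

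Notch2, whose own locus is unaltered but whose intracellular sequence the 12 allele holds, was higher with a 12 allele. It was at 2.67, 3.31 and 2.89 scaled FPKM in +/+, at 2.33, 3.41 and 2.25 in +/-, and at 2.91, 2.10 and 2.26 in +/vg. It was at 3.89, 4.26 and 4.41 in +/12, at 4.28 in 12/vg, and at 4.11, 4.37 and 3.39 in 12/-. The libraries with and without a 12 allele overlapped at 1 value only, the 3.41 of the shallow +/- replicate 2, which lay just above the lowest carrier (12/- replicate 3, 3.39). In the order of group means, 12/vg (4.28), +/12 (4.19 ± 0.264, SD, n = 3), 12/- (3.96 ± 0.506), +/+ (2.96 ± 0.323), +/- (2.66 ± 0.650) and +/vg (2.42 ± 0.431), the step from 12/- to +/+ was 1.00 without overlap, and all other neighbours overlapped. Between +/12 and +/+, Notch2 was higher without overlap and Notch1 lower without overlap, where 6.61% of all tested genes were higher and 5.95% lower in that way.

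The 12 allele effect on Notch2 was 0.42 ± 0.10 (SE, 95% interval 0.20 to 0.64, limma adjusted p = 0.162), and its unadjusted p ranked 86 among 10550 genes. The null allele effect was -0.10 ± 0.10 (-0.32 to 0.13, limma adjusted p = 0.884). The interaction was 0.06 ± 0.21 (-0.39 to 0.50, limma adjusted p = 0.976), so a difference in the 12 allele effect between the second alleles was not detected, within a wide interval. In 12/- against +/+ it was 0.32 ± 0.15 (limma adjusted p = 0.398), and in +/vg against +/+ -0.21 ± 0.15 (limma adjusted p = 0.805). Without the 2 shallow libraries the 12 allele effect was 0.49 (limma adjusted p = 0.0618), and with the range of library numbers as a covariate it was 0.56 (limma adjusted p = 0.724). Among the low library numbers, Notch2 ran from 3.39 to 4.41 in the 7 libraries with a 12 allele and was 2.25 and 2.26 in the 2 without.

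The balance of Notch2 to Notch1 within a library needs no scaling between libraries and is given as a description, with no test by 12 allele. The pair was taken up because earlier results on these data had shown both genes to vary with that allele. The 12 allele also holds Notch2 sequence in place of Notch1 sequence, so reads from its transcript and reads from the Notch2 gene cannot be told apart here. Notch1 stood above Notch2 by a factor of 8.70, 6.24 and 6.03 in +/+, of 7.04, 5.86 and 10.3 in +/-, and of 7.97, 9.81 and 9.04 in +/vg. The factor was 3.71, 3.77 and 3.64 in +/12, 3.60 in 12/vg, and 4.79, 3.71 and 4.53 in 12/-. The 7 libraries with a 12 allele thus reached at most 4.79, and the 9 others at least 5.86. The 3 +/12 libraries and the 12/vg library lay close together, and the widest spread was that of +/-.

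As log2(Notch2/Notch1), the mean was -1.98 ± 0.168 with a 12 allele (SD, n = 7) and -2.95 ± 0.311 without (SD, n = 9). The difference was 0.97, a 1.96-fold higher ratio. Within the low library numbers the difference was 1.29, with -1.98 in 7 libraries and -3.27 in 2. The 7 libraries without a 12 allele among the high numbers averaged -2.86. Between the 6 libraries with a deleted allele and the 10 without, the ratio differed by 0.02 (exact permutation p = 0.937, two-sided). Both sets mix libraries with and without a 12 allele, so this test cannot isolate the deleted allele. At a matched second allele, the mean was -2.91 in +/- and -2.79 in +/+, and -2.11 in 12/- and -1.89 in +/12. It was lower with the deleted allele in both pairs, with overlapping libraries, and these differences were not tested.

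**Figure D2:**
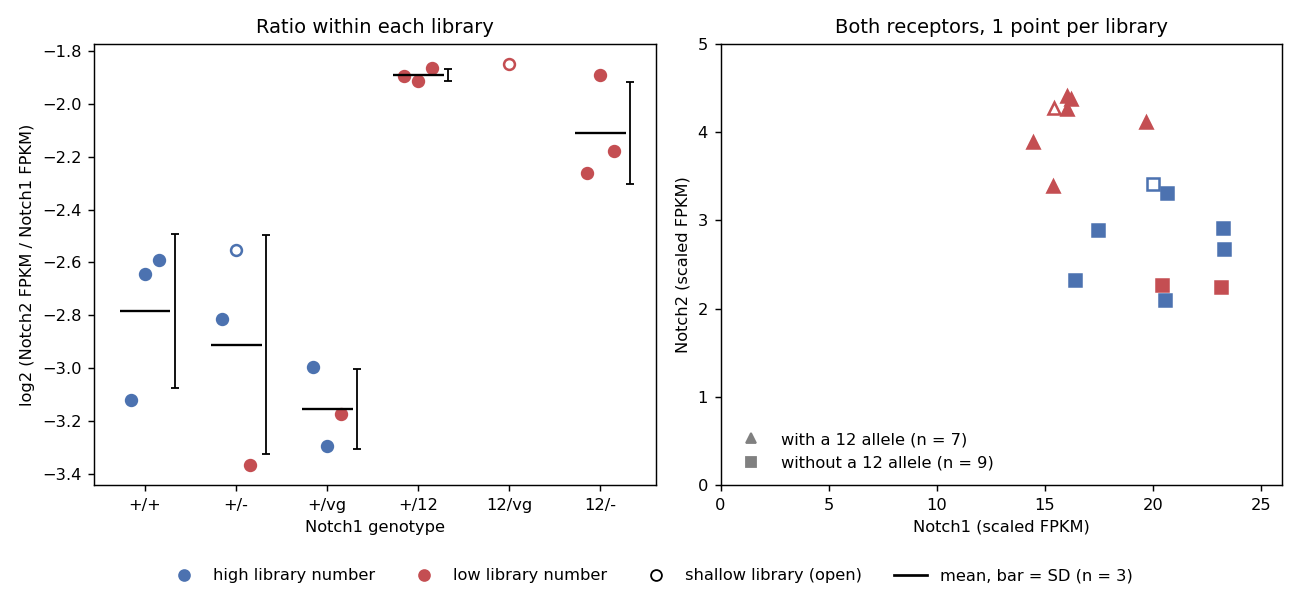
Left, log2 ratio of Notch2 to Notch1 FPKM in each library by genotype, with the mean and SD of the groups of 3; right, Notch2 against Notch1 (scaled FPKM), triangles with and squares without a 12 allele. The 7 libraries with a 12 allele lie above all 9 others on the left. The libraries drawn as squares average -3.27 on the log2 ratio at low library number (2 red squares) and -2.86 at high number (n = 7). The part of the library number in the ratio was not tested.

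Notch4, the receptor most confined to endothelium in the textbook account, was highest in 12/-. It was at 7.98, 11.1 and 8.93 scaled FPKM in +/+, at 8.63, 10.7 and 14.7 in +/-, and at 9.06, 10.1 and 10.3 in +/vg. It was at 9.53, 12.4 and 11.9 in +/12, at 11.4 in 12/vg, and at 20.7, 12.3 and 13.2 in 12/-. All 3 12/- libraries lay above all 3 +/+ libraries, while +/-, +/vg and +/12 overlapped +/+. In 12/- against +/+, Notch2 and Notch4 were the 2 of 4 receptors whose libraries did not overlap, both higher in 12/-, where 10.4% of all tested genes were higher without overlap and 9.47% lower.

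The group means of Notch4 ran from 15.4 ± 4.61 in 12/- (SD, n = 3) through 11.4 in 12/vg, 11.3 ± 3.11 in +/-, 11.3 ± 1.53 in +/12 and 9.81 ± 0.656 in +/vg to 9.33 ± 1.59 in +/+. The step from 12/- to 12/vg had no overlap, but 12/vg is 1 library and the step of 4.04 is smaller than the SD of 12/-. In 12/- against +/+ the difference was 0.64 ± 0.21 on the log2 scale (SE, 95% interval 0.19 to 1.10, limma adjusted p = 0.240). The 12 allele effect was 0.33 ± 0.15 (0.0091 to 0.65, limma adjusted p = 0.446) and the null allele effect 0.31 ± 0.15 (limma adjusted p = 0.773). The interaction was 0.15 ± 0.30 (-0.49 to 0.79, limma adjusted p = 0.937), and +/vg against +/+ gave 0.07 ± 0.21 (limma adjusted p = 0.974). With the range of library numbers as a covariate, the 12 allele effect was 0.05 (limma adjusted p = 1.0) and 12/- against +/+ was 0.31 (limma adjusted p = 0.881). The covariate rests on 1 low library each of +/- and +/vg. In +/-, Notch4 was 14.7 in the low library and 8.63 and 10.7 in the high ones. In +/vg it was 10.3 against 9.06 and 10.1. Among the low library numbers, Notch4 averaged 13.1 ± 3.56 with a 12 allele (n = 7) and was 10.3 and 14.7 in the 2 libraries without. Without 12/- replicate 1, the difference between 12/- and +/+ was 0.42 (limma adjusted p = 0.620).

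Summed endothelial markers were also above +/+ in 12/-, though not in 12/- alone. Their summed level was 1480, 1280 and 1252 scaled FPKM in 12/-, 1343 in 12/vg, and 1176, 1055 and 1136 in +/+. It was 1112, 1278 and 1253 in +/-, 1124 to 1156 in +/vg and 1086 to 1216 in +/12, so 2 of 3 +/- libraries lay among those of 12/-. The library with the highest sum, 12/- replicate 1, was also the one with the highest Notch4. Of the 15 markers, 1 was called higher in 12/- against +/+ in limma, the VEGF receptor Flt1 (0.84 ± 0.15, limma adjusted p = 0.0235), and the median of the list was 0.36 against -0.0026 over all genes. In the same comparison the median was -1.19 over 5 cardiomyocyte markers, 0.59 over 4 blood markers and 0.28 over 4 erythroid markers. It was 0.30 over 3 mesenchyme, 0.27 over 3 epithelial and 0.05 over 6 mural markers, and 0.49 for the 1 neural marker tested. In each of these lists 0 were called in limma. The cardiomyocyte, blood and erythroid medians were -0.49, 0.61 and 0.20 in +/vg against +/+, so they were not particular to 12/-. The part of these lists in the Notch4 level was not tested. In these bulk libraries, more endothelial cells in a sort and more Notch4 RNA per cell cannot be told apart.

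Notch3 was the lowest receptor in every library and showed no order by genotype. It was at 1.70, 1.74 and 2.05 scaled FPKM in +/+, at 1.13, 1.41 and 1.60 in +/-, and at 2.06, 1.60 and 1.46 in +/vg. It was at 2.39, 1.37 and 1.37 in +/12, at 3.02 in 12/vg, and at 2.26, 2.55 and 1.29 in 12/-. The highest value came from the shallow 12/vg library, where the transcript had a mean depth of 0.749 reads. The groups of 3 libraries all overlapped +/+ except +/-, whose 3 values lay below the 3 of +/+. Notch3 was the 1 receptor of 4 that was separate in this comparison, where 3.77% of all tested genes were lower without overlap and 4.02% higher.

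The 12 allele effect on Notch3 was 0.12 ± 0.14 (SE, 95% interval -0.18 to 0.42, limma adjusted p = 0.756) and the null allele effect -0.05 ± 0.14 (-0.34 to 0.25, limma adjusted p = 0.961). The interaction was 0.41 ± 0.28 (-0.19 to 1.01, limma adjusted p = 0.841). Against +/+, 12/- differed by 0.08 ± 0.20 (limma adjusted p = 0.920) and +/vg by -0.07 ± 0.20 (limma adjusted p = 0.974). At these levels the added 1 FPKM compresses differences, and a drop of Notch3 to 0.915 scaled FPKM, the +/+ mean divided by 2, would be -0.56. Mural markers, among which Notch3 is commonly counted, summed to 60.7, 47.1 and 58.9 in +/+ and to 74.5, 52.1 and 70.9 in 12/-. Without Mcam, which averaged 30.7 in +/+ and 44.3 in 12/-, the sum was 24.9 ± 3.25 in +/+ and 21.5 ± 3.30 in 12/- (SD, n = 3 each), so the direction turned. None of the 6 mural markers tested was called in limma in 12/- against +/+ (0 of 6; unadjusted p-values under 0.05 belonged to 1 higher and 2 lower markers). Of these 6 markers, 3 had a difference above 0. Pdgfrb, a pericyte receptor named after its values were seen, averaged 1.395 scaled FPKM in +/+ and 0.476 in 12/-. The part of mural cells in the Notch3 level was not tested.

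**Figure D3:**
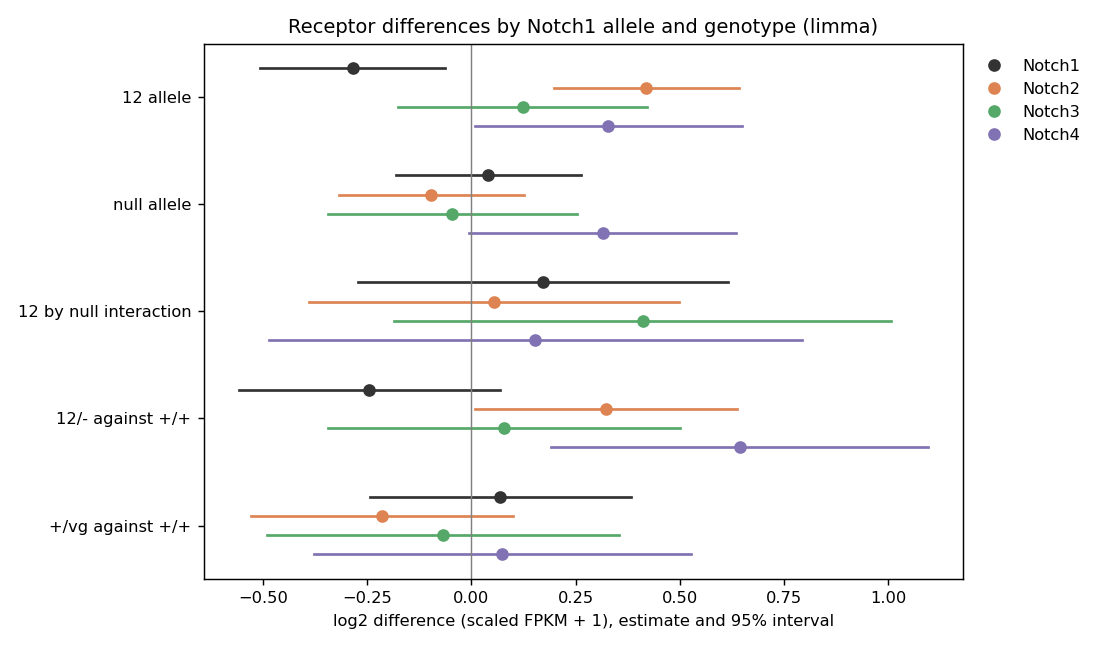
Difference in each receptor (log2 of scaled FPKM + 1) for the 5 comparisons, points with 95% intervals from limma, not adjusted for the number of genes. For the 12 allele the interval of Notch1 lies below 0 and those of Notch2 and Notch4 above 0, and for the null allele all 4 intervals include 0.

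Taken as shares of the summed FPKM of the 4 receptors, Notch1 made up less of the total with a 12 allele. Its share was 55.7% to 65.3% in +/+, 55.5% to 57.5% in +/- and 59.4% to 62.3% in +/vg. It was 47.1% to 47.8% in +/12, 45.2% in 12/vg and 42.1% to 46.2% in 12/-, so the 7 libraries with a 12 allele lay below the 9 others without overlap. The share of Notch4 was 39.6% ± 4.79 in 12/- and 27.0% ± 4.08 in +/+ (SD, n = 3 each), that of Notch2 10.4% ± 1.78 and 8.58% ± 0.936, and that of Notch3 5.30% ± 1.71 and 5.35% ± 1.05. The summed level itself overlapped between the groups, at 38.5 ± 7.24 scaled FPKM in 12/- and 34.6 ± 2.88 in +/+. These shares describe the same values as above and were not tested.

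**Figure D4:**
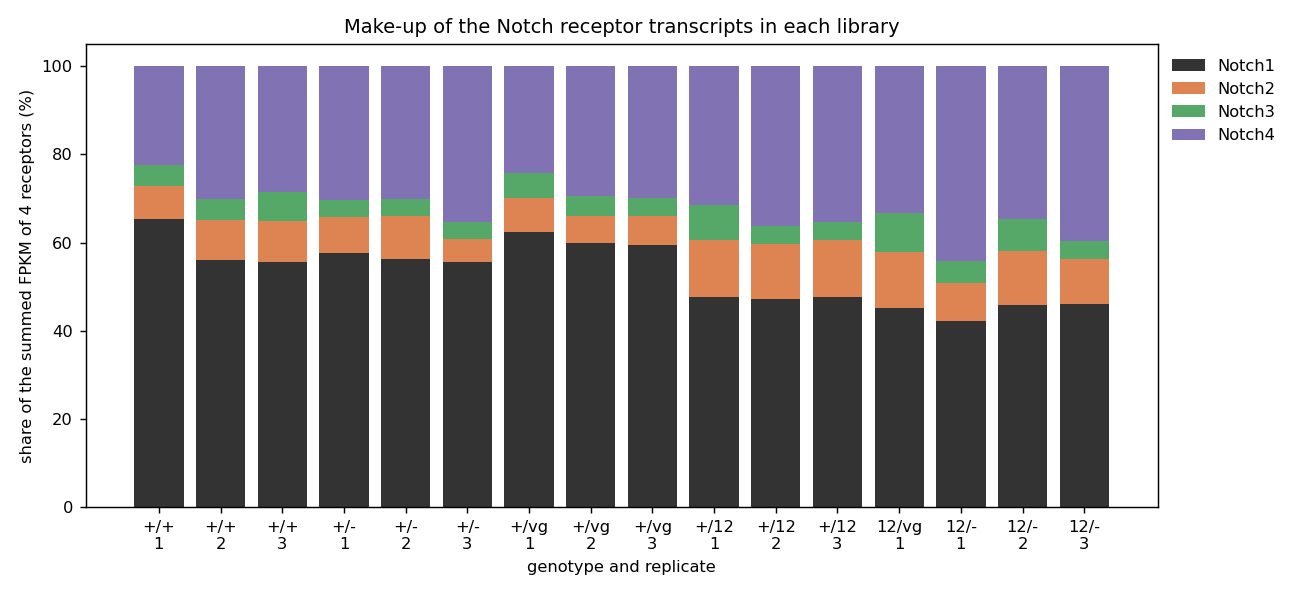
Share of each receptor in the summed FPKM of the 4 Notch receptors (percent, stacked bars from 0 to 100), 1 bar per library by genotype and replicate. The Notch1 share is at most 47.8% in the 7 libraries with a 12 allele and at least 55.5% in the 9 others.

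The rest of the pathway was read from 6 lists by role, with 56 genes in the tables and 42 tested. In limma, 0 of 42 were called in each of the 5 comparisons. Unadjusted p-values under 0.05 came from 1 higher and 1 lower gene for the 12 allele, from 2 and 3 for the null allele, from 1 and 1 for the interaction, from 4 and 3 in 12/- against +/+, and from 0 and 1 in +/vg against +/+. For the 12 allele the median over the 42 genes was 0.05, with 26 of 42 above 0, against 0.00079 over all genes tested.

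Each list is represented by its most abundant gene. Dll4, the ligand of arterial and tip cells, was the highest of 5 ligands at 8.89 ± 2.18 scaled FPKM in +/+ and 12.8 ± 4.20 in 12/- (SD, n = 3 each). Mfng, a Fringe sugar transferase that tunes which ligands a receptor answers, was at 35.9 ± 2.80 and 46.8 ± 5.85. Psenen, a subunit of gamma-secretase, was at 113 ± 10.9 and 123 ± 14.4. Of the nuclear complex, the coactivator Snw1 was the most abundant, at 17.1 ± 2.32 and 17.6 ± 1.17. Egfl7, a secreted endothelial protein that can bind Notch and that also stands in the endothelial list, was at 219.7 ± 58.4 and 229 ± 40.7. Among 13 target genes Hey1, a repressor switched on by Notch, was the highest, at 62.0 ± 9.78 in +/+ and 40.1 ± 9.53 in 12/-. The 3 libraries of each did not overlap, where 9.47% of all tested genes were lower without overlap. Hey1 also averaged 44.8 ± 12.4 in +/-, 41.7 ± 11.8 in +/vg and 36.2 ± 13.1 in +/12, and was 28.2 in 12/vg. Its lower level was thus not particular to 12/-. None of these 6 was called in any of the 5 comparisons in limma.

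**Figure D5:**
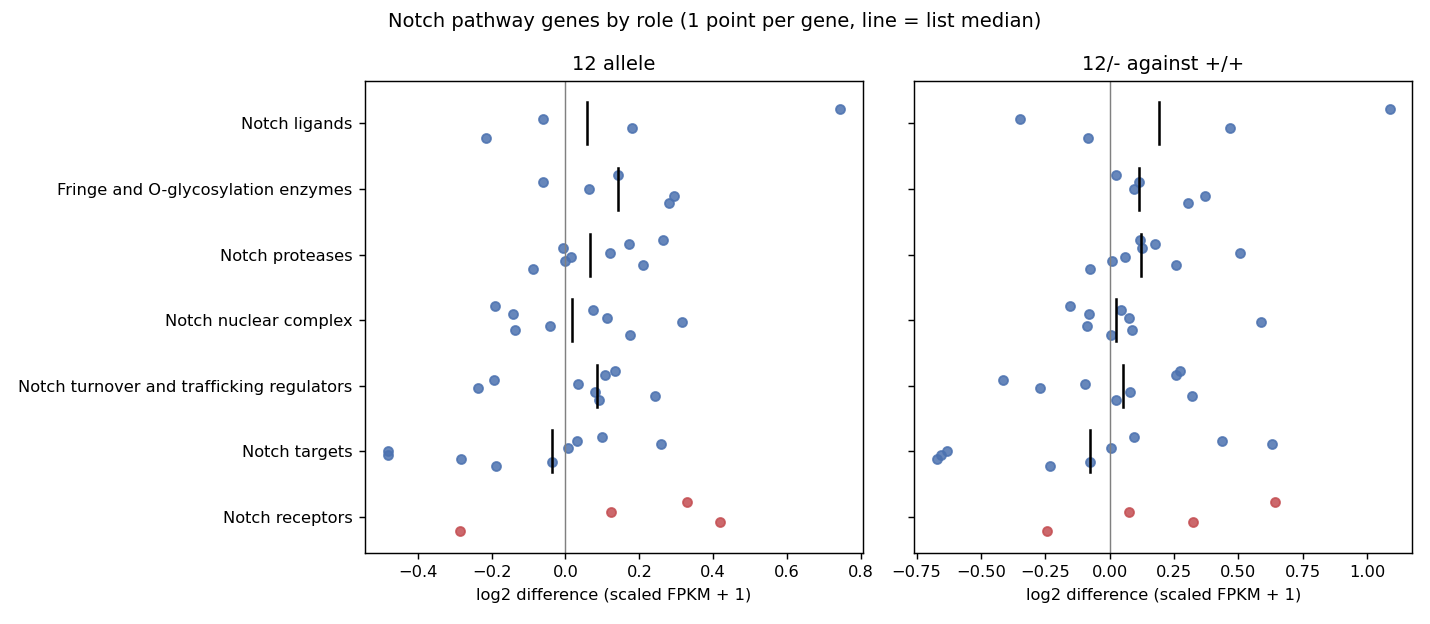
Difference of each tested Notch pathway gene (log2 of scaled FPKM + 1; 1 point per gene, line at the list median) for the 12 allele and for 12/- against +/+, by role, with the 4 receptors in red. None of the points passed an adjusted p of 0.05, and the ligand point farthest to the right in each panel is Jag2 (0.74 and 1.09).

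The genes whose levels ran most alike with each receptor over the 16 libraries were listed by Pearson's r on the log2 scale, as a description. The libraries share scaling and depth differences, and the genotypes that separate Notch1 and Notch2 enter these values. For Notch4 the r values were the highest of the 4 receptors, from 0.855 to 0.868, and the genes were Agpat4, a phospholipid acyltransferase, Col4a2, a chain of basement membrane collagen, Plod1, a collagen lysyl hydroxylase, Lrp10, a lipoprotein receptor relative, and Sparc, a collagen-binding matrix protein. Col4a2 averaged 86.8 scaled FPKM in +/+ and 148 in 12/-, and Sparc 277 and 454. For Notch3 they were Shmt2, a mitochondrial enzyme of serine metabolism, Midn, Mex3d, Cdk8, a kinase of the Mediator complex, and D11Wsu99e (r from 0.745 to 0.762). For Notch2 they were Anxa7, an annexin, Adam17, a protease that can cut Notch receptors, Srm, a polyamine synthase, Zfp593 and H2afj (r from 0.706 to 0.745). Anxa7 averaged 6.80 in +/+, 8.86 in +/12 and 9.59 in 12/-. For Notch1 they were the splicing factor Sf3a1, Zhx3, the kinase scaffold Ksr1, Chmp7 and the zinc finger gene Zfp521 (r from 0.697 to 0.764).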

How the data were processed

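RNA was measured in 16 libraries of sorted endothelial cells. The authors deposited 1 table per library with an FPKM value, a coverage value (mean read depth) and a status for 28107 RefSeq transcripts, and per the file headers this is the cufflinks layout. The submitters' processing notes name TopHat2 2.0.9 and the build mm9. For the cufflinks version and the strandedness no source used here gives a value. Deposited coverage divided by FPKM is constant within a library and was read as gigabases aligned. FPKM values are not counts, so no count test was used.

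FPKM was summed per symbol (Python 3.11.15, pandas 2.3.3). The 211 symbols with a status other than OK were left out of tests, and genes averaging 1 FPKM or more were kept. Libraries were divided by median-ratio factors (0.851 to 1.13) over 8638 genes. limma 3.58.1 (R 4.3.3; trend=TRUE, two-sided) was fitted on log2(scaled FPKM + 1) to all 16 libraries in 6 groups, so fold changes of low genes are understated. The 2 spellings of the wild-type label were taken as 1 group. The fit was tested on simulated data. Sequences came from GENCODE M21 transcripts, and codons were aligned through global protein alignment (BLOSUM62). RefSeq promoters were not used.

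The members, the gene lists and the tests were chosen with earlier results of these data known. Named genes are the 4 receptors, the called or else most abundant gene of each pathway list, and the 5 genes with the highest r to each receptor. Other pathway genes are said to be chosen after their values were seen. Alternatives covered scaling, pseudocount, filters, status, moderation, weights, the libraries fitted, library number, shallow libraries and each replicate. The ratio of Notch2 to Notch1 had been planned with an exact test by 12 allele, which is not reported because the pair was chosen for that difference. Pdgfrb and the mural sum without Mcam were added after seeing the data.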

Additional observations from a re-analysis of the deposited data

Results flagged for a closer look

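Over 20 sets of libraries (4 receptors and the log2 ratio of Notch2 to Notch1, with and without a 12 allele and with and without a deleted allele), 3 had a library whose distance from its nearest neighbour was large for the range of the set. The limit used would flag about 1 in 20 unrelated sets by chance. These sets share libraries and mix genotypes, so the number to be met by chance here is not known. Among the 7 libraries with a 12 allele, 12/- replicate 1 stood apart for Notch1 (19.7 scaled FPKM, next 16.2) and for Notch4 (20.7, next 13.2). Among the 9 libraries without one, +/- replicate 3 stood apart for Notch4 (14.7, next 11.1). The summed endothelial markers were 1480 in the first of these libraries, the highest of all 16, and 1253 in the second, and their part in the receptor levels was not tested.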

How the results depend on the processing

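No receptor was called in any of the 5 comparisons under 27 alternatives for Notch1 and Notch4 and 26 for Notch2 and Notch3, which a mean FPKM of at least 5 removes. Under these alternatives Notch1 kept its negative and Notch2 and Notch4 their positive sign for the 12 allele, at -0.39 to -0.23, 0.38 to 0.56 and 0.053 to 0.42 over all of them. The lowest Notch4 value came with the range of library numbers as covariate, against 0.33 as reported. Signs turned for Notch3 for the null allele without scaling (0.026), and, with the range of library numbers as covariate, Notch2 in the interaction (-0.00044) and Notch4 in +/vg against +/+ (-0.036). With single libraries left out, the null allele effect ran from -0.017 to 0.10 for Notch1 and from -0.11 to 0.048 for Notch3, the interaction from -0.025 to 0.20 for Notch2 and from -0.066 to 0.34 for Notch4, 12/- against +/+ from -0.049 to 0.27 for Notch3, and +/vg against +/+ from -0.035 to 0.16 for Notch1 and from -0.021 to 0.19 for Notch4. The difference in the log2 ratio by 12 allele within the low numbers, a description, was 1.27 without the shallow libraries and 1.20 to 1.39 with single libraries left out. The ratio by deleted allele ran from -0.10 to 0.19.

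Counts of called genes moved more. For the 12 allele the count of 25 was 11 without scaling, 16 without a filter, 12 with the compared groups alone, 3 with the library number covariate, and 12 to 98 with single libraries left out (98 without +/- replicate 3). For the null allele the count of 6 was 14 without scaling, 2 with the compared groups alone and 0 to 11 leave-one-out. For the interaction the count of 5 was 0 without scaling, with the covariate and without the shallow libraries, 2 at a pseudocount of 0.1 and with array weights, 3 at a mean FPKM of at least 5, 1 with the compared groups alone and 0 to 9 leave-one-out. For 12/- against +/+ the count of 63 was 143 with array weights, 41 with the compared groups alone, 23 with the covariate, 112 without the shallow libraries and 20 (without 12/- replicate 1) to 112 (without +/- replicate 2) leave-one-out. For +/vg against +/+ the count of 0 was 1 without a filter, 3 with array weights, 1 with the compared groups alone and 0 to 3 leave-one-out. The cause of these shifts was not tested. No paired analysis was possible because the labels give the libraries no replicate numbers that groups share. Low depth limits Notch2 and Notch3 most in the 2 shallow libraries.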

Other observations

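Outside the receptors, 4 Notch pathway genes were singled out after their values were seen. Jag2, a Notch ligand, was at 2.76, 3.30 and 2.62 scaled FPKM in +/+ and at 9.33, 6.46 and 6.29 in 12/-. These libraries did not overlap, where 10.4% of all tested genes were higher without overlap. The log2 difference of Jag2 was 1.09 ± 0.25 (SE) and did not pass the threshold (limma adjusted p = 0.0902). Jag2 was between 4.15 and 5.71 in the 3 +/12 libraries and at 13.0 in the single, shallow 12/vg library. It was at 2.09, 2.78 and 6.21 in +/-, and between 3.04 and 3.93 in +/vg. The 6.21 of +/- replicate 3 lay above every +/12 library and close to the lowest 12/- value. Nrarp, a target gene and feedback inhibitor of Notch, was at 7.66, 8.04 and 8.21 in +/+ and at 17.9, 11.5 and 10.4 in 12/- (0.63 ± 0.18, limma adjusted p = 0.186). It was at 8.98, 11.9 and 10.1 in +/-, so its higher level was not particular to 12/-. Nrarp ran from 8.01 to 11.1 in +/12 and from 6.71 to 8.62 in +/vg, and was 12.0 in 12/vg. Other targets went the opposite way in 12/-. Hes1, a repressor switched on by Notch, was at 25.7, 38.3 and 37.5 in +/+ and at 23.3, 20.6 and 18.8 in 12/- (-0.65 ± 0.27, limma adjusted p = 0.354). Gja5, an arterial gap junction gene, was at 39.9, 37.0 and 44.2 in +/+ and at 26.2, 26.7 and 22.1 in 12/- (-0.67 ± 0.25, limma adjusted p = 0.314). Gja5 was also below every +/+ library in +/vg, at 31.2, 31.3 and 21.2, where 6.28% of all tested genes were lower without overlap. It averaged 34.8 ± 9.56 in +/- and 38.0 ± 12.1 in +/12 (SD, n = 3 each). Of the 9 targets tested, unadjusted p-values under 0.05 belonged to 1 higher and 2 lower, and 0 were called in limma. Dll4, Jag2 and Nrarp all had their highest 12/- value in replicate 1, the library in which Notch4 was also highest.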
